A study of Mus musculus with 14 samples.

Results

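Chromatin at 7 genes of the trophectoderm, the lineage that forms the placenta, was followed while embryonic stem (ES) cells were driven towards primitive endoderm (PrE) by the transcription factor GATA6. The genes were Cdx2, Elf5, Eomes, Tfap2c, Tead4, Hand1 and Ascl2. They were taken as markers of a lineage that the induced factor was not expected to open. Accessible regions came from ATAC-seq, which reads out where a transposase can reach the DNA. Overlapping peaks of the 14 libraries (by 1 bp or more) were joined into regions, and a region belonged to the gene whose transcription start site (TSS) was the nearest protein-coding one within 50 kb. This gave 83 regions out of 84402 assigned in that way to any gene, and out of 124598 regions in all. Tead4 had 24 of them, Tfap2c 16, Eomes 13, Elf5 12, Hand1 7, Cdx2 6 and Ascl2 5.

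All libraries were made from KH2 mouse ES cells, labelled as strain C57BL/6 and carrying the transgene TRE:GATA6-DSREd2, in which a doxycycline (Dox) responsive element drives GATA6 together with the red fluorescent protein DsRed2. The 0 h cells also carried the transgene but grew without Dox in serum-free medium with kinase inhibitors and LIF. Cells collected at 2, 4 and 8 h had been moved to serum medium with LIF and Dox at 1 µg/mL for that time. Cells collected at 16, 24 and 48 h had received Dox for 12 h and then serum medium with LIF but no Dox. Each time point had 2 libraries of 50000 cells, and the cells came from 1 engineered line. Induction and the change of medium coincided, so their effects cannot be told apart. A call in bulk cells can come from few cells that are widely open there or from many that are weakly open, and these cannot be told apart either.

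The trophectoderm is the outer epithelium of the blastocyst. TEAD4, a DNA-binding partner of YAP in the Hippo pathway, switches on Cdx2 in outer cells, and CDX2, EOMES, ELF5 and the AP-2 factor TFAP2C sustain trophoblast stem cells. HAND1 promotes trophoblast giant cells, and ASCL2, made from an imprinted gene, supports the spongiotrophoblast. GATA factors bind short words such as AGATAA, and the related factor GATA3 is itself active in trophectoderm.

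The regions are shown first through the 200 bp around the centre of 8 of them, because they stand for the changes at 48 h. For each gene, the candidates were the gained region called in most induced libraries and the lost region called in most libraries of 0 to 8 h. Regions in untranslated regions (UTRs) were left out, and ties went to the region nearest the TSS. With a limit of 8, gained regions came first and then the lost ones called in most of those libraries. The lost regions of Eomes, Cdx2 and Hand1 are therefore not shown. The windows shown were read from the plus strand of GRCm38. Capitals mark GATA words, of the form AGATAA with A or T as the first and A or G as the last letter, on either strand.

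Tead4, 2235 bp downstream of the TSS, gained at 48 h, chr6:128298489-128298688: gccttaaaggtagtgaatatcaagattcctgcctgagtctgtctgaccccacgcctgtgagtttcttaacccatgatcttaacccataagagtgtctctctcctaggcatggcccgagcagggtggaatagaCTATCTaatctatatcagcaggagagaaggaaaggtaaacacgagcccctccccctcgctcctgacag
Elf5, 5465 bp upstream of the TSS, gained at 48 h, chr2:103406124-103406323: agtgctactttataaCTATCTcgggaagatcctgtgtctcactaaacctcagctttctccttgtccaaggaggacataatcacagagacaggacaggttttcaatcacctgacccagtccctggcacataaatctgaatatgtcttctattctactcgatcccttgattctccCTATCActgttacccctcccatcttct
Tfap2c, 35852 bp downstream of the TSS, gained at 48 h, chr2:172585346-172585545: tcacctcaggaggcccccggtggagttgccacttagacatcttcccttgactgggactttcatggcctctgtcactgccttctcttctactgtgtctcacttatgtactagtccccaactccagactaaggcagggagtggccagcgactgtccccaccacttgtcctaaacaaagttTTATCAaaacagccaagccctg
Eomes, 10917 bp downstream of the TSS, gained at 48 h, chr9:118489030-118489229: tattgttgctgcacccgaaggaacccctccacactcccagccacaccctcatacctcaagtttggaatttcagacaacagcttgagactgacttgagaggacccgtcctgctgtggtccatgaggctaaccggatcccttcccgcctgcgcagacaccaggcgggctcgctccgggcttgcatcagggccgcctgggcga
Elf5, 10723 bp upstream of the TSS, lost at 48 h, chr2:103400866-103401065: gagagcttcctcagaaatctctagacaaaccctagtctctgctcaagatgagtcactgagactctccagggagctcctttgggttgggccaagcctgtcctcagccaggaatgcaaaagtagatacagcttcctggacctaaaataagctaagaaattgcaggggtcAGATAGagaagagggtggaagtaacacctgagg
Tfap2c, 18779 bp downstream of the TSS, lost at 48 h, chr2:172568273-172568472: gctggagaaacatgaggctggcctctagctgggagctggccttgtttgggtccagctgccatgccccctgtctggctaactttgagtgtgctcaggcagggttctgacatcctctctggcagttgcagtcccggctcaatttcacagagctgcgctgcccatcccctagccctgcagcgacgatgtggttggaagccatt
Tead4, 4196 bp downstream of the TSS, lost at 48 h, chr6:128296528-128296727: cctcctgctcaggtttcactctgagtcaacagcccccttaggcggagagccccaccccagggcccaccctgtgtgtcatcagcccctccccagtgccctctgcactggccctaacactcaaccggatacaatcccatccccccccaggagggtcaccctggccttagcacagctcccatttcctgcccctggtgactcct
Ascl2, 7979 bp downstream of the TSS, lost at 48 h, chr7:142961186-142961385: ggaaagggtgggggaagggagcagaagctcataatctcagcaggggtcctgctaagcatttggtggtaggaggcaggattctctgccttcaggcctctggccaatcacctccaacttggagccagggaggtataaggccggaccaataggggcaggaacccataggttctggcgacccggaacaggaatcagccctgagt

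The 4 gained windows held 2 GATA words at Elf5, 1 at Tfap2c, 1 at Tead4 and 0 at Eomes. Of the 4 lost windows, only that of Elf5 held a word. Of the lost candidates not shown, those of Cdx2 (2605 bp) and Hand1 (36313 bp upstream) each held 1 word. That of Eomes (6748 bp upstream) held 0.

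Before the members are described, the libraries may be summarised. The peak lists held 55588 to 65073 peaks. The lists carry no read counts, so depth is unknown and an unlisted region can still be open to a lesser degree. The 2 libraries of a time point disagreed on 67 of 581 calls at the 83 regions (11.5%), against 13.2% over all assigned regions. As a check of cell identity, calls of the region nearest each marker TSS, within 1 kb of it, were read. Of the PrE markers, Gata4, Foxa2 and Pdgfra were called in no library before 8 h and in both at 48 h. In between, Pdgfra was called in neither 24 h library, and Gata4 in 1 each of 16 and 24 h. Gata6 was called in both of 24 h and 1 of 48 h, and Sox17 in 1 of 48 h only, whereas Lama1 was called in 14 of 14 libraries. Of the ES cell markers, Zfp42 was called in 14 of 14 libraries, Pou5f1 from 8 h on, and Sox2 in both of 16 h and 1 of 48 h. Nanog was called in both 0 h and in neither 48 h library. Between these it was called in 1 of 2 h, both of 4 h, neither of 8 h, both of 16 h and 1 of 24 h. Pou5f1, Sox2, Sox17 and Lama1 had 2 regions within 1 kb and Gata6 had 3, and the farther ones were not read. Esrrb and Dab2 had no region within 1 kb. Calls at these TSSs thus followed the labels for some markers and not for others.

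The region nearest the TSS of the trophectoderm genes, within 1 kb of it, did not separate induced from uninduced cells. At Cdx2, Eomes, Tead4 and Ascl2 it was called in all 14 libraries, 0 h included. At Tfap2c it was called in 13, missing in 1 library of 0 h. Hand1 had a TSS region in 1 library of 24 h only, and Elf5 had none within 1 kb. Tead4 had a second region within 1 kb, in an intron at 951 bp. This one was called in no 0 h library, in both of 2 h, in 1 each of 4 and 8 h and in none later. Of the 30 regions gained or lost at 48 h (defined next), 24 were more than 5 kb from the TSS (80%, against 77.7% of such regions over all assigned), and of the 16 called in all libraries 9 were (56.2%, against 37.0%).

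**Figure D1:**
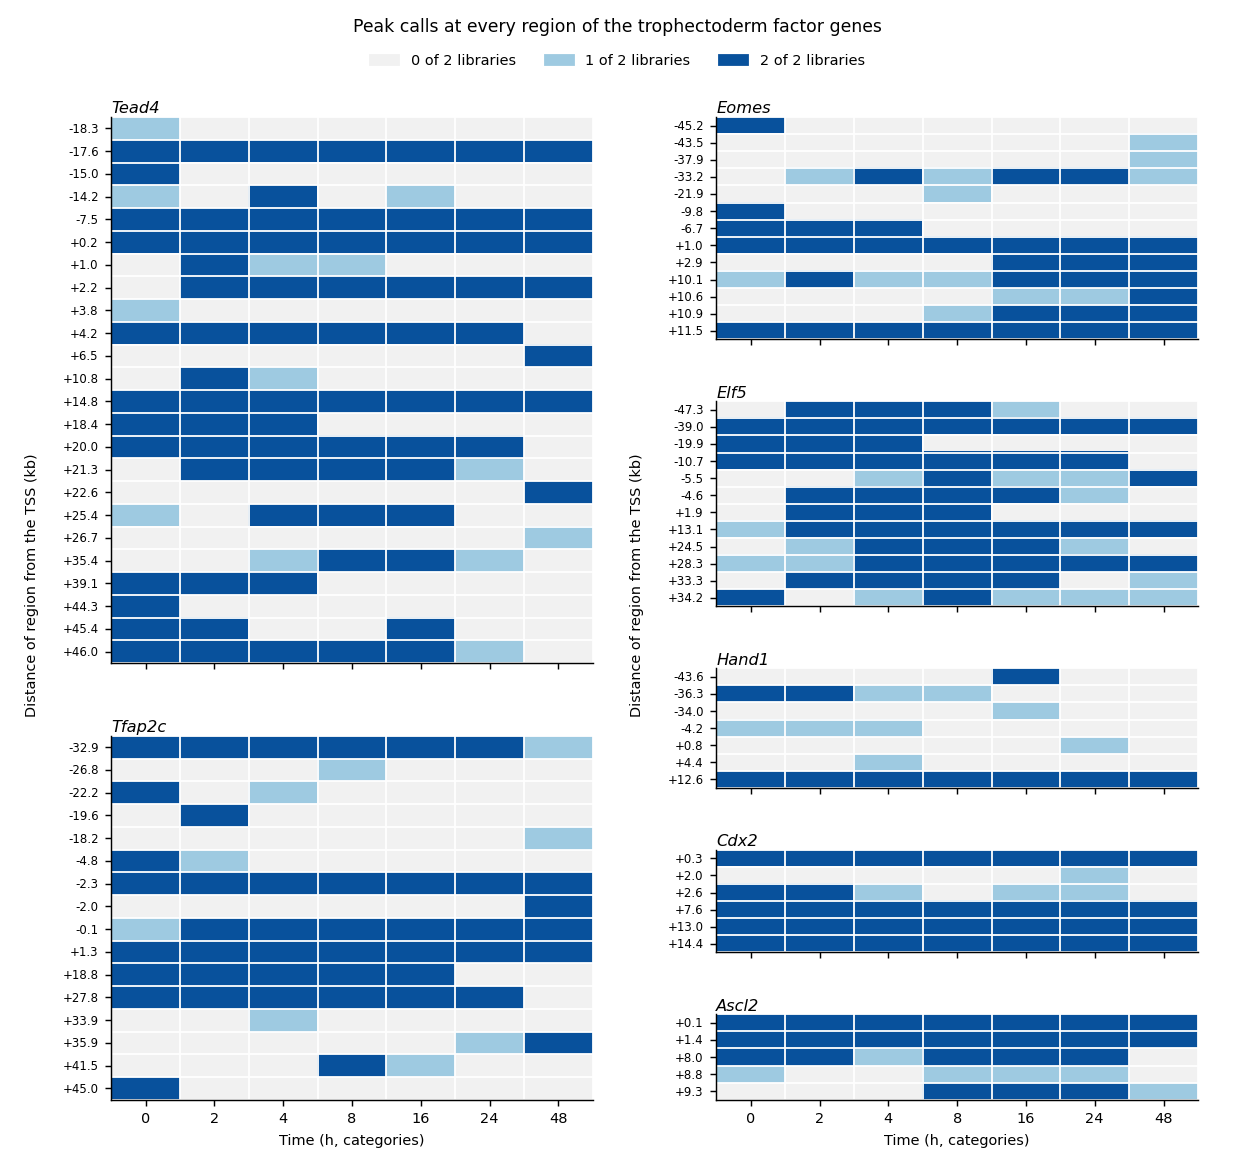
Calls at all 83 regions of the 7 genes, by time (columns) and distance from the TSS in kb (rows, negative is upstream). Colour gives the number of the 2 libraries that called the region. Elf5 fills between 2 and 16 h and empties again, Tead4 and Tfap2c thin out towards 48 h, and 16 regions are called throughout.

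To ask how many regions appeared or disappeared at these loci, each time point was compared with 0 h. A region was gained if called in both libraries of the time point and in neither of 0 h, and lost in the reverse case. An exact two-sided test of 2 libraries against 2 cannot go below p = 0.333, so these are counts without a test, and all 6 comparisons share the 0 h libraries. At 48 h, 9 of the 83 regions were gained (10.8%), where 14.1% of all assigned regions were. In contrast, 21 were lost (25.3%), where 14.4% of all were. Of the remainder, 16 were called in all 4 libraries.

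The genes differed in their losses. Tead4 lost 8 of its 24 regions, Tfap2c 5 of 16, Eomes 3 of 13 and Elf5 2 of 12. Cdx2 lost 1 of 6, Hand1 1 of 7 and Ascl2 1 of 5, where 14.4% of all assigned regions were lost. The gains came from Tead4 and Eomes, with 3 each, Tfap2c with 2 and Elf5 with 1. Cdx2, Hand1 and Ascl2 had no region gained at 48 h.

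From 2 to 16 h, gains and losses were similar in number. At 2 h, 9 regions were gained (10.8%, against 7.88% of all) and 7 lost (8.43%, against 5.61%). At 4 h, 8 were gained (9.64%, against 9.12%) and 7 lost (8.43%, against 6.34%). At 8 h the counts were 11 gained (13.3%, against 10.3%) and 13 lost (15.7%, against 8.27%), and at 16 h they were 11 gained (13.3%, against 12.6%) and 12 lost (14.5%, against 8.00%). At 24 h only 5 were gained (6.02%, against 11.4%) and 14 were lost (16.9%, against 11.0%). The gained share was thus near or slightly above that of all assigned regions at 2 to 16 h and below it at 24 and 48 h, and the lost share was above it at each time point.

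Over the whole course, 23 regions were gained at 1 or more time points (27.7%, against 29.0% of all) and 22 were lost at 1 or more (26.5%, against 16.7%). Of the 23, 11 were transient, being called in no 0 h or 48 h library (13.3% of the 83, against 12.4% of all). The 16 regions called in all 14 libraries made up 19.3% of the 83, against 19.2% of all.

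Loci of the lineages of the inner cell mass were set beside these counts. At 6 PrE loci (Gata6, Gata4, Sox17, Sox7, Pdgfra and Foxa2), 36 of 88 regions were gained at 48 h (40.9%) and 5 lost (5.68%). At 7 epiblast (Epi) loci (Nanog, Sox2, Esrrb, Klf4, Pou5f1, Prdm14 and Zfp42), 18 of 104 were gained and 18 lost (17.3% each). At 48 h the gained share was lowest at the trophectoderm factors and the lost share highest. At 2 h, in contrast, their gained share was the highest of the 3 sets (10.8%, against 6.82% at PrE and 8.65% at Epi loci). A region can be lost only if both 0 h libraries called it and gained only if neither did, so these shares depend on what was called at 0 h. The sets differed in this. Regions called in both libraries of 0 h and of 48 h made up 19.3% at the trophectoderm factors, 7.95% at PrE loci and 16.3% at Epi loci. The 3 sets were chosen by name and their differences were not tested.

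**Figure D2:**
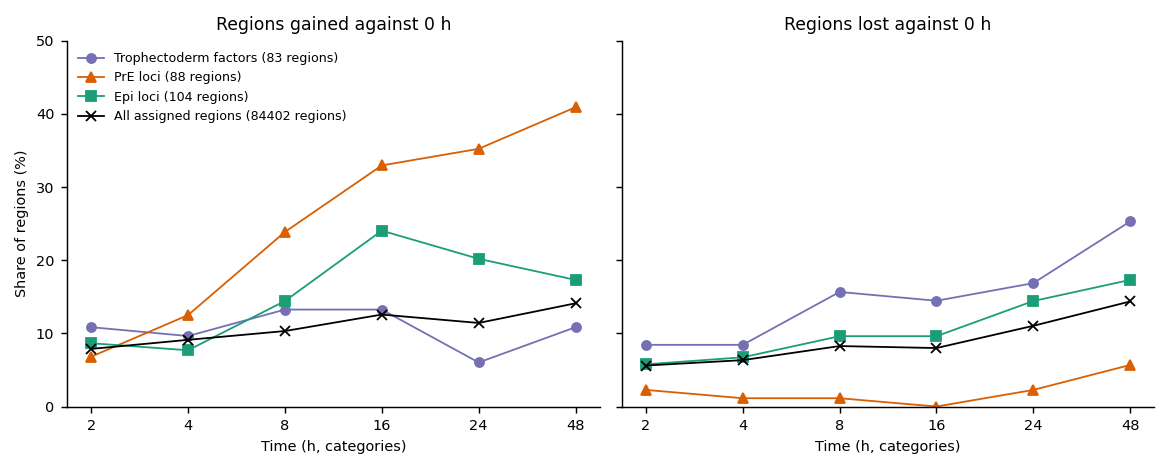
Share of regions gained (left) or lost (right) against 0 h, in percent, at each induced time point, for the 7 trophectoderm factors, 6 PrE loci, 7 Epi loci and all assigned regions. At 48 h the trophectoderm loci stand at 10.8% gained and 25.3% lost, and the PrE loci at 40.9% and 5.68%.

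Counts against 0 h use only part of the series, so a trend over all 7 time points was tested for every region called in 2 to 12 libraries. It permuted the ranked time points among libraries (exact and two-sided) and compared the libraries with and without a call, with Benjamini-Hochberg adjustment over 79559 regions. Of the 83 regions 51 entered it. There, 4 rose (background 12.1% of tested regions) and 8 fell (background 12.3%), which is 7.84% and 15.7% of the 51. Among the 51020 tested regions assigned to a gene, 12.5% rose and 10.6% fell. A region called in 2 or in 12 libraries cannot go below p = 0.0220 in this exact permutation test. That adjusted to 0.0541, so such regions could not pass. Without either 0 h library 7 rose, and without any 1 of both 4 h and 8 h libraries, 16 h replicate 1 and 24 h replicate 2 only 2 rose. Nothing in the labels says that the 2 libraries of a time point were separate cultures, so p-values measure only the spread between these libraries.

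A second test asked whether the number of called regions at a gene followed time, using the rank correlation with time and 100000 shuffles, adjusted over 16247 genes. It found 2 of the 7 genes falling and 0 rising, where 8.75% of all genes fell and 10.2% rose. A single gene fell when either 0 h library, 2 h replicate 2, 24 h replicate 1 or 48 h replicate 2 was left out, and 1 rose without 0 h replicate 2. At an unadjusted permutation p below 0.05, Eomes pointed upward (rho = 0.640, p = 0.0162, adjusted p = 0.0702, but rho = -0.083 with peaks merged within 200 bp) and Hand1 downward (rho = -0.614, p = 0.0292, adjusted p = 0.0958).

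**Figure D3:**
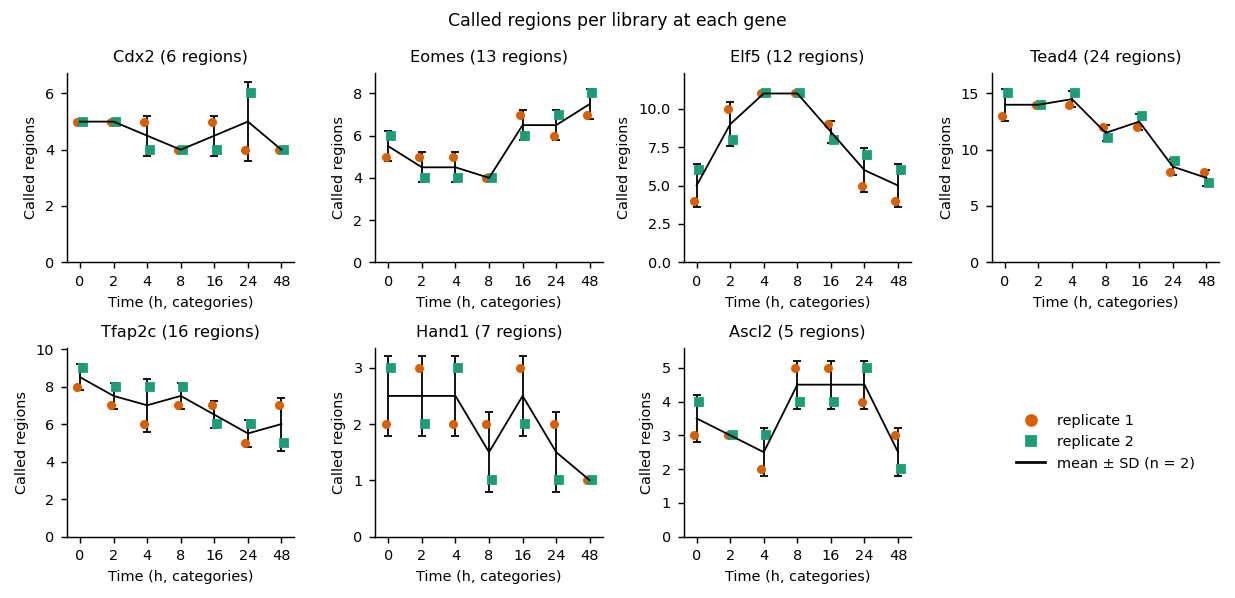
Number of called regions at each gene in each library (orange circles, replicate 1; green squares, replicate 2), with the mean ± SD of the 2 libraries, against time in h. Tead4 goes from 13 and 15 at 0 h to 8 and 7 at 48 h, and Elf5 from 4 and 6 to 11 and 11 at 4 and 8 h and back.

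Tead4 (ENSMUSG00000030353, chr6:128224288-128300823, minus strand) encodes the TEA-domain factor at the start of the trophectoderm programme and is made in many other cells. It stands on the study's own list of PrE genes as well. It had 13 and 15 called regions at 0 h, 14 and 14 at 2 h, 14 and 15 at 4 h, 12 and 11 at 8 h, 12 and 13 at 16 h, 8 and 9 at 24 h, and 8 and 7 at 48 h. Both libraries of 24 and 48 h lay below all 10 earlier ones. The number fell with time (rho = -0.858, permutation test, adjusted p = 0.00637), from 14 ± 1.41 to 7.5 ± 0.707 (SD, n = 2 each).

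At Tead4 the change ran through the introns, and the TSS region was not part of the loss. The TSS region, over the first UTR and 187 bp from the TSS, was called in all 14 libraries. Its peak score, given as a percentile within each library (100 is the highest), was 75.0 and 83.4 at 0 h, 23.1 and 64.1 at 2 h, 60.1 and 72.3 at 4 h, 77.2 and 78.2 at 8 h, 87.4 and 80.7 at 16 h, 89.3 and 79.7 at 24 h, and 90.9 and 95.2 at 48 h. This percentile rose (rho = 0.726, permutation test over 18809 always-called regions, adjusted p = 0.0232). Of the 16 always-called regions of the 7 genes 2 rose and 1 fell in percentile, where 19.5% of all such regions rose and 9.82% fell. The call was lost without the 24 h replicate 1, the 48 h replicate 1 or the 48 h replicate 2 library (permutation test, adjusted p 0.0588 to 0.0668), and when scores were ranked among always-called regions only (rho = 0.629, permutation test, adjusted p = 0.0663).

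The gained region with the highest scores at any of the 7 genes lay 2235 bp into Tead4, in an intron (chr6:128298352-128298826). It was called in no 0 h library and in all 12 induced ones. Its score percentile was 15.4 and 14.9 at 2 h, 86.3 and 87.4 at 4 h, 89.1 and 90.8 at 8 h, 96.8 and 98.5 at 16 h, 94.7 and 95.9 at 24 h, and 93.0 and 89.3 at 48 h. The region thus went from not called at 0 h to called with low scores at 2 h. Between 2 and 4 h its score percentile then climbed to 86.3 and 87.4. Its window holds 1 GATA word, shown above as CTATCT. The trend test, which sees only calls, gave an adjusted permutation p of 0.0541, the lowest that a region called in 12 libraries could reach.

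Further downstream in the same gene, calls ended in steps. Those at 18414 and 39069 bp were called in both libraries of 0, 2 and 4 h and in none later, and both fell (exact permutation test, adjusted p = 0.0130 each). The score percentile of the region at 39069 bp was 96.8 and 96.5 at 0 h, 63.8 and 64.2 at 2 h, and 32.3 and 32.9 at 4 h. The region at 46029 bp was called up to 16 h, in 1 library at 24 h and in none at 48 h, and also fell (exact permutation test, adjusted p = 0.0451). That call was lost without any 1 of the 9 libraries of 4, 8, 16 and 48 h and 24 h replicate 1 (adjusted p 0.0541 to 0.0932).

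The other losses at Tead4 were of different timing. Regions at 4196 and 19952 bp were called in every library until 24 h and in neither of 48 h, with score percentiles of 63.6 and 64.2, and of 80.3 and 69.5, at 24 h. Those at 44339 bp and 15025 bp upstream were called at 0 h alone. The region at 45362 bp was called in both 0 h, both 2 h and both 16 h libraries. Of the gains, regions at 6456 and 22644 bp appeared at 48 h alone, the second with score percentiles of 75.2 and 78.8. The region at 21345 bp was transient, with score percentiles of 88.1 and 81.5 at 2 h, 59.4 and 54.5 at 8 h, 6.35 in 1 library at 24 h, and no call at 0 or 48 h.

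**Figure D4:**
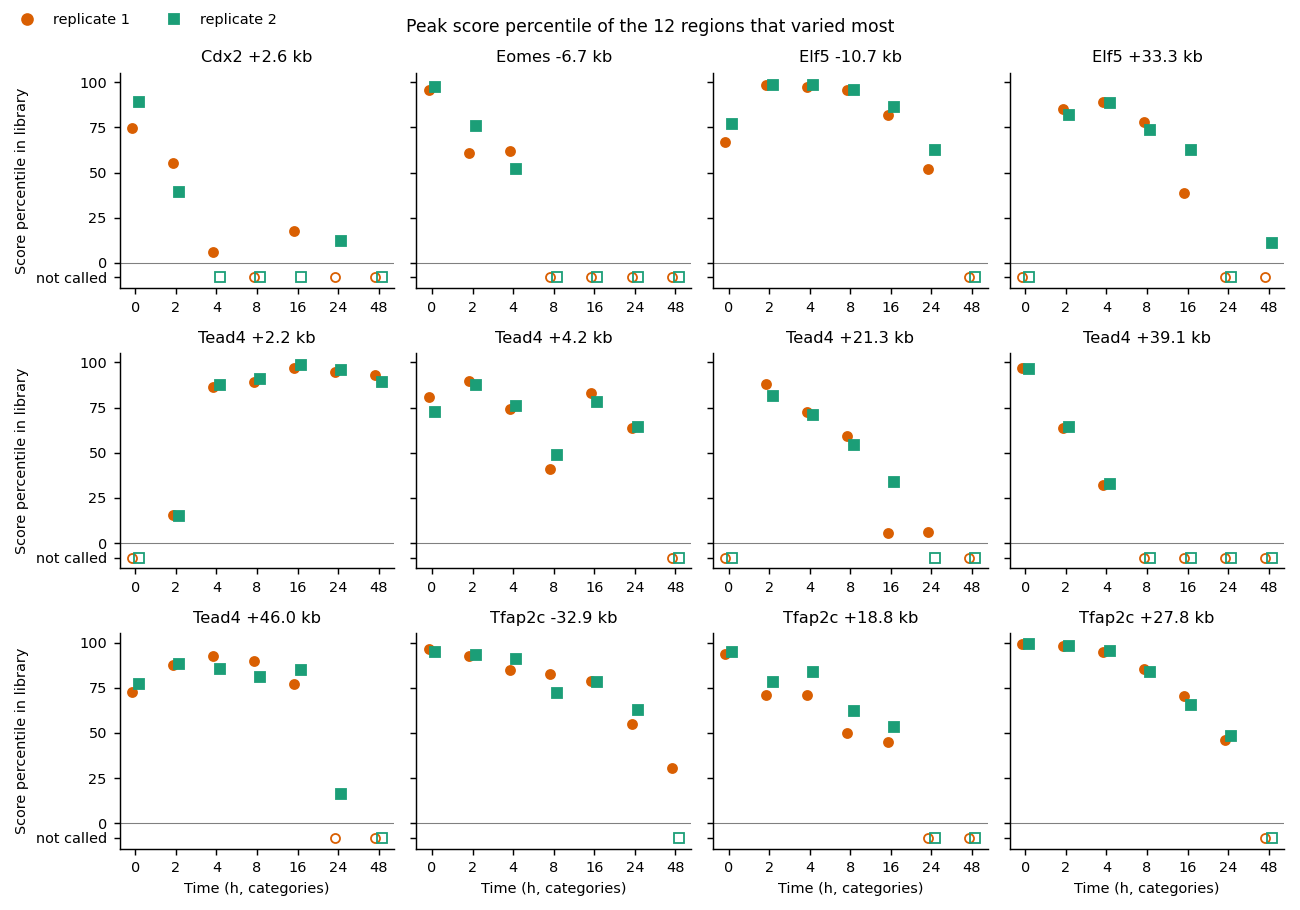
Score percentile within its library (0 to 100) against time in h of the 12 regions whose time-point means varied most, counting regions not called as 0, for replicate 1 (circles) and replicate 2 (squares). Open symbols mark libraries without a call. Tead4 at 2235 bp climbs between 2 and 4 h, Tfap2c at 27802 bp goes down at each step until 24 h, and both Elf5 regions peak at 2 or 4 h.

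Tfap2c (ENSMUSG00000028640, chr2:172549593-172558622, plus strand) encodes an AP-2 factor that is also present in ES cells and germ cells. Its libraries had 8 and 9 called regions at 0 h, 7 and 8 at 2 h, 6 and 8 at 4 h, 7 and 8 at 8 h, 7 and 6 at 16 h, 5 and 6 at 24 h, and 7 and 5 at 48 h. The number fell with time (rho = -0.734, permutation test, adjusted p = 0.0286), although 1 of the 48 h libraries equalled several early ones. This call was lost without either 0 h library, 2 h replicate 2, 24 h replicate 1 or 48 h replicate 2 (permutation test, adjusted p 0.0501 to 0.0649). It was also lost within 20 kb (rho = -0.454, adjusted p = 0.254), with 50% coverage (adjusted p = 0.0714), with the 50000 highest peaks per library (adjusted p = 0.0770) and among the induced libraries (adjusted p = 0.122), all by the permutation test.

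The regions over and near the Tfap2c TSS stayed called. The one 57 bp upstream was called in 13 libraries, and those 1262 bp downstream, over the UTR, and 2275 bp upstream in all 14. The decline lay farther out on both sides. The region at 27802 bp, between genes, had score percentiles of 98.9 and 99.1 at 0 h, 98.2 and 98.2 at 2 h, 94.7 and 95.2 at 4 h, 85.5 and 83.9 at 8 h, 70.3 and 65.5 at 16 h, and 46.3 and 48.2 at 24 h, and was called in neither 48 h library. In each library after 2 h it was lower than in every library of the time point before. It had been among the top peaks of both 0 h libraries. Its calls alone, in 12 libraries, gave an adjusted permutation p of 0.0541, the lowest that such a region could reach.

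The neighbouring region at 18779 bp went the same way earlier, with score percentiles of 93.7 and 94.6 at 0 h and 45.2 and 53.4 at 16 h, and no call at 24 or 48 h. Its calls fell (exact permutation test, adjusted p = 0.0130). When a call required 50% of the region to be covered, this call was lost (exact permutation test, adjusted p = 0.111). On the other side of the gene, the region 32904 bp upstream had score percentiles of 96.2 and 94.8 at 0 h, 78.6 and 78.2 at 16 h, 54.7 and 62.7 at 24 h, and 30.8 in 1 library at 48 h. Regions 4779 and 22200 bp upstream and 45044 bp downstream were called in both 0 h libraries and in at most 1 later one. The first of them fell (exact permutation test, adjusted p = 0.0451), and the region at 35852 bp, called in 1 library of 24 h and both of 48 h, rose (exact permutation test, adjusted p = 0.0451). Either call was lost without any 1 of 9 libraries, which included all of 4, 8 and 16 h for both, and either 0 h library and 2 h replicate 2 for the first, and either 48 h library and 24 h replicate 2 for the second (adjusted p 0.0541 to 0.0932). The remaining region gained at 48 h lay 2009 bp upstream, next to one that was called throughout.

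Eomes (ENSMUSG00000032446, chr9:118478212-118486132, plus strand) encodes a T-box factor of trophoblast stem cells that also acts in mesendoderm and in visceral endoderm, a PrE derivative. Libraries had 5 and 6 called regions at 0 h, 5 and 4 at 2 h, 5 and 4 at 4 h, 4 and 4 at 8 h, 7 and 6 at 16 h, 6 and 7 at 24 h, and 7 and 8 at 48 h. The 8 h libraries lay below and the 48 h libraries above both 0 h libraries. The trend over 14 libraries did not pass the threshold (given above), but did so without 0 h replicate 2 (permutation test, adjusted p = 0.0320). With peaks merged within 200 bp the direction turned (rho = -0.083, permutation test, adjusted p = 0.902).

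The composition of the locus changed more than its number. Upstream, 3 regions were lost. The one 6748 bp upstream had score percentiles of 95.8 and 97.5 at 0 h, 60.7 and 75.5 at 2 h, and 61.8 and 52.2 at 4 h, and was not called afterwards. It fell (exact permutation test, adjusted p = 0.0130). Regions 9789 and 45245 bp upstream were called at 0 h alone.

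Downstream of the TSS, 3 regions were gained and all 3 rose. The region in an intron at 2895 bp was called in both libraries of 16, 24 and 48 h and in none earlier (exact permutation test, adjusted p = 0.0130). That at 10917 bp was called in 1 library of 8 h and in both from 16 h on (exact permutation test, adjusted p = 0.0130), with score percentiles of 64.3 and 31.0 at 16 h and 31.1 and 44.2 at 48 h. The third, at 10628 bp in an exon of the non-coding gene Gm33460, was called in 1 library each of 16 and 24 h and in both of 48 h (exact permutation test, adjusted p = 0.0451). That last call was lost without any 1 of 8 libraries, namely those of 4, 8 and 48 h, 16 h replicate 1 and 24 h replicate 2 (adjusted p 0.0546 to 0.0724). The regions at 10628 and 10917 bp lay 48 bp apart, and 124 and 129 bp from the neighbours at 10143 and 11466 bp, the last of which was called in all 14 libraries. Merging within 200 bp joins all 4 into 1 region, so that of the 3 rises only that at 2895 bp was then left. None of the 3 windows held a GATA word. The TSS region, 998 bp away over a coding exon, was called in all libraries with score percentiles between 38.1 and 65.3.

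Elf5 (ENSMUSG00000027186, chr2:103411688-103450989, plus strand) encodes an ETS factor that is kept silent in ES cells by DNA methylation of its promoter. Its called regions formed a wave. Libraries had 4 and 6 at 0 h, 10 and 8 at 2 h, 11 and 11 at 4 h, 11 and 11 at 8 h, 9 and 8 at 16 h, 5 and 7 at 24 h, and 4 and 6 at 48 h. All 8 libraries of 2 to 16 h were above both 0 h libraries, and the 48 h values equalled those of 0 h. A trend in 1 direction was not found (rho = -0.229, permutation test, adjusted p = 0.604), and a test of a rise followed by a fall was not run.

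Of the 12 Elf5 regions, 6 were gained at some time and 4 of these were transient. The region 4600 bp upstream had score percentiles of 70.7 and 59.8 at 2 h, 78.2 and 73.6 at 4 h, 61.8 and 51.9 at 8 h, and 44.1 and 46.3 at 16 h, with 5.42 in 1 library at 24 h and no call at 0 or 48 h. The region in an intron at 1866 bp was called in both libraries of 2, 4 and 8 h, at 66.6 and 71.4 at 4 h, and in no other library. The others were 47303 bp upstream and 24512 bp downstream. The region at 33294 bp, over an exon, had score percentiles of 89.2 and 88.8 at 4 h and was called in 1 library of 48 h and none of 0 h. The region 5465 bp upstream was the only one that counted as gained at 48 h.

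Of the 4 Elf5 regions called in both 0 h libraries, 2 had an early peak in score. The region 38986 bp upstream, over an exon of the non-coding gene A930006I01Rik, was called throughout. It had score percentiles of 61.4 and 62.3 at 0 h, 97.4 and 97.4 at 2 h, 97.8 and 97.5 at 4 h, 89.6 and 88.2 at 8 h, 76.1 and 72.6 at 16 h, 58.1 and 50.6 at 24 h, and 45.5 and 51.6 at 48 h. Its trend over all 14 libraries did not pass (rho = -0.594, permutation test, adjusted p = 0.0800), but among the 12 induced libraries the percentile fell (rho = -0.919, permutation test, adjusted p = 0.00342). Without 0 h replicate 1 or 0 h replicate 2 it also fell (permutation test, adjusted p 0.0267 and 0.0250). The region 10723 bp upstream had 67.0 and 76.9 at 0 h, 98.4 and 98.7 at 2 h, 51.9 and 62.4 at 24 h, and no call at 48 h. In contrast, the region 19900 bp upstream was called at 0, 2 and 4 h alone, with percentiles between 61.0 and 72.6, and fell (exact permutation test, adjusted p = 0.0130). The region at 34218 bp scored low, at 26.3 and 2.97 at 0 h, and was called in neither 2 h library and in 1 or both of each later time point.

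Cdx2 (ENSMUSG00000029646, chr5:147300805-147307270, minus strand) encodes the homeodomain factor that holds the trophectoderm apart from the pluripotent cells. Its locus moved little. Libraries had 5 and 5 called regions at 0 h, 5 and 5 at 2 h, 5 and 4 at 4 h, 4 and 4 at 8 h, 5 and 4 at 16 h, 4 and 6 at 24 h, and 4 and 4 at 48 h (rho = -0.446, permutation test, adjusted p = 0.255). Of its 6 regions, 4 were called in all 14 libraries, at 277, 7586, 12966 and 14409 bp from the TSS. No region was gained at any time point.

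The loss at Cdx2 was in an intron, 2605 bp from the TSS. Its score percentile was 74.6 and 89.3 at 0 h and 55.3 and 39.2 at 2 h, and later it was called in 1 library each of 4, 16 and 24 h and in neither of 48 h (exact permutation test, adjusted p = 0.109). The region at 12966 bp, past the 3′ end of the gene, had score percentiles of 25.6 and 48.4 at 0 h, 1.36 and 6.78 at 2 h, 12.2 and 42.9 at 4 h, 53.5 and 22.1 at 8 h, 43.0 and 43.6 at 16 h, 58.3 and 62.5 at 24 h, and 76.3 and 71.0 at 48 h. This percentile rose (rho = 0.753, permutation test, adjusted p = 0.0166). Its window held 2 TEAD words (GGAATG on either strand). The TSS region had percentiles between 0.295 and 47.8, so that it was called throughout but never among the high-scoring peaks.

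Hand1 (ENSMUSG00000037335, chr11:57828705-57832818, minus strand), a basic helix-loop-helix gene of giant cells, had the fewest called regions per library. Its libraries had 2 and 3 called regions at 0 h, 3 and 2 at 2 h, 2 and 3 at 4 h, 2 and 1 at 8 h, 3 and 2 at 16 h, 2 and 1 at 24 h, and 1 and 1 at 48 h. The region at 12551 bp was the only one called throughout. The region 36313 bp upstream was called in both libraries of 0 and 2 h, in 1 each of 4 and 8 h and in none later, and fell (exact permutation test, adjusted p = 0.0206). It did not pass among the induced libraries alone (adjusted p = 0.0622) or where a call required 50% coverage (adjusted p = 0.0591, both by the exact permutation test). The number over time did not pass (given above), but did so without 16 h replicate 1 (permutation test, adjusted p = 0.0389).

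Ascl2 (ENSMUSG00000009248, chr7:142966829-142969264, minus strand) had 3 and 4 called regions at 0 h, 3 and 3 at 2 h, 2 and 3 at 4 h, 5 and 4 at 8 h, 5 and 4 at 16 h, 4 and 5 at 24 h, and 3 and 2 at 48 h (rho = 0.157, permutation test, adjusted p = 0.742). The values of 8 to 24 h were at or above those of 0 h, and those of 48 h at or below. The TSS region at 142 bp was called throughout. So was the region at 1398 bp, whose score percentile was 79.4 and 73.9 at 0 h, 83.5 and 92.2 at 2 h, 84.3 and 87.6 at 4 h, 81.5 and 75.5 at 8 h, 80.5 and 64.1 at 16 h, 64.5 and 47.1 at 24 h, and 31.4 and 37.0 at 48 h. This percentile fell (rho = -0.700, permutation test, adjusted p = 0.0299). The call was lost without 16 h replicate 2 or any 1 library of 24 or 48 h (permutation test, adjusted p 0.0616 to 0.0873).

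Farther from Ascl2, 2 nearby regions differed at 0 to 4 h and were both called in every library of 8 to 24 h. That at 7979 bp was called in all but 1 library up to 24 h and in neither of 48 h (exact permutation test, adjusted p = 0.266). That at 9296 bp was called in both libraries of 8, 16 and 24 h, in 1 of 48 h and in none earlier (exact permutation test, adjusted p = 0.0581). The window of the second held 2 GATA words, 2 AP-2 words and 1 octamer, and that of the first 1 AP-2 word.

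Short words for the induced factor were then counted in the 200 bp around each centre. GATA words stood in 35 of the 83 regions (42.2%), against 32.2% of all assigned regions. Among regions gained at 1 or more time points they stood in 15 of 23 (65.2%), against 52.3% of all such regions. Among regions gained at 48 h the count was 5 of 9 (55.6%, against 54.4%), among those lost it was 5 of 21 (23.8%, against 20.9%), and among those called throughout it was 3 of 16 (18.8%, against 16.1%). In these windows, both gained classes had a higher share than the lost class, at these loci and over all assigned regions alike. The lost class had a higher share than regions called throughout. Over whole regions, 5 of 9 member regions gained at 48 h (55.6%) and 12 of 21 lost ones (57.1%) held a word. At these loci those shares were thus nearly equal, on small counts, whereas over all assigned regions the gained share was higher (70.7% and 51.5%). Member regions gained at 1 or more time points kept the higher share, with a word in 18 of 23 (78.3%, against 70.4% of all such regions).

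The genes differed in their words. Elf5 held a GATA word in 10 of 12 regions, Tead4 in 11 of 24, Hand1 in 4 of 7, Tfap2c in 5 of 16, Cdx2 in 2 of 6, Eomes in 2 of 13 and Ascl2 in 1 of 5. Of regions gained at some time, 5 of 6 at Elf5, 6 of 7 at Tead4 and 1 of 1 at each of Hand1 and Ascl2 held one. At Tfap2c 2 of 4 did and at Eomes 0 of 4, where 52.3% of all such regions did. These counts are small and their differences were not tested. Words of the other factors were fewer. The TEAD word GGAATG was in 7 regions (8.43%, against 13.8% of all), the AP-2 word GCCNNNGGC in 9 (10.8%, against 9.93%) and the octamer ATGCAAAT of OCT factors in 2 (2.41%, against 1.90%). A match is a string of letters in a window and says nothing of binding.

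**Figure D5:**
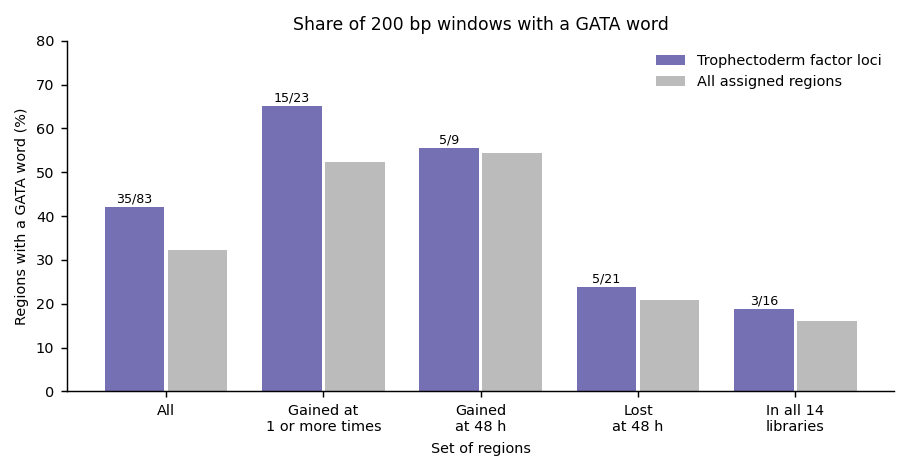
Percent of regions whose central 200 bp held a GATA word, for the trophectoderm factor loci (purple, with counts) and for all assigned regions (grey), by class of region. Both sets are higher among gained regions (65.2% and 52.3% of those gained at 1 or more time points, 55.6% and 54.4% of those gained at 48 h) than among lost ones, and lowest among regions called in all libraries, at 18.8% and 16.1%.

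Related gene lists gave the setting of these 7 genes. The Hippo and TEAD pathway (13 genes, 134 regions) had 33 regions gained at 48 h (24.6%) and 20 lost (14.9%). The called-region number rose at Amotl2, an angiomotin that holds YAP, from 7 and 8 at 0 h to 12 and 12 at 48 h (rho = 0.738, permutation test, adjusted p = 0.0258). It also rose at the YAP target Ccn1, from 4 and 5 to 10 and 11 (rho = 0.701, permutation test, adjusted p = 0.0389). It fell at Nf2, an upstream member, from 5 and 5 to 4 and 4 (rho = -0.687, permutation test, adjusted p = 0.0471). The other 9 genes tested did not pass, and Lats1 had the same number in all libraries.

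Other trophectoderm and trophoblast factors (14 genes, 155 regions) had 23 regions gained (14.8%) and 24 lost (15.5%), close to all assigned regions on either side. Of these genes 1 rose and 0 fell. It was Klf5, a Krüppel-like factor shared with ES cells, with 7 and 8 called regions at 0 h and 10 and 13 at 48 h (rho = 0.790, permutation test, adjusted p = 0.0171). Bmp4 (rho = -0.632, adjusted p = 0.0739) and Esrrb (rho = -0.467, adjusted p = 0.230) came next by the permutation test. Esrrb is on the Epi list as well.

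Trophectoderm epithelium genes (11 genes, 120 regions), which make keratins, junctions and transporters, had 24 regions gained at 48 h (20.0%) and 13 lost (10.8%). Gains were already frequent at 2 h, with 27 regions (22.5%, against 7.88% of all assigned regions), and stayed between 23 and 27 at each later one. Plet1, a surface protein of trophoblast progenitors, rose from 4 and 6 called regions at 0 h to 10 and 10 at 48 h (rho = 0.960, permutation test, adjusted p = 0.00155). Aqp3, a water channel, fell from 3 and 3 to 1 and 1 (rho = -0.829, permutation test, adjusted p = 0.00812). The remaining 9 genes, which include the Na,K-ATPase subunit gene Atp1b1 (rho = 0.511, permutation test, adjusted p = 0.172), did not pass.

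Placental products were almost without regions. Of 7 genes, 5 (Prl3d1, Prl2c2, Prl3b1, Ctsq and Synb) had none in any library. Tpbpa had 1 region, called at 4 and 8 h only, and Syna had 6, of which 1 was gained at 48 h. No gene of this list passed the test.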

How the data were processed

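ATAC-seq peak lists were analysed for 14 libraries, 2 at each of 7 time points, grouped by the time in their labels. Each library has 1 list, deposited by the authors after the ENCODE ATAC-seq pipeline. Peaks had passed, as the file names say, an irreproducible discovery rate of 0.05 on pseudoreplicates of that library and a blacklist, so replicates were not pooled. The value beside each peak is an unnamed deposited score of unstated scale, so it was used only as a percentile of rank within a library. The submitters' processing notes name mm10 and GRCm38 and deepTools, which made signal tracks that were not used here. Peak callers, thresholds and depth decide which regions are listed, and a missing peak is not a closed region. The test that the study used needs reads and was not run.

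Peaks were merged across libraries and assigned to GENCODE vM21 protein-coding genes with Python 3.11.15, numpy 2.4.6, pandas 2.3.3 and scipy 1.17.1. No region ended past its chromosome (0 of 124598). Region trends, called-region numbers and score percentiles were tested by permutation over all regions or genes, with Benjamini-Hochberg adjustment at 0.05. The tests were tried on simulated data with known changes. The called-region number was tested where it varied, and score percentiles only in regions called in all 14 libraries. The members, gene lists and tests were chosen with earlier results of these data known. Of the PrE list, 1 locus is not reported here. The text names the 7 members, their TSS region, every region gained or lost at 48 h or past a test with its value or count, and up to 3 genes of each related list by smallest p. Sequences are, per gene, the gained region called in most induced and the lost region called in most 0 to 8 h libraries, outside UTRs. At most 8 were kept, gained ones first and then lost ones called in most of those libraries. Region by region, call differences between replicates 1 and 2 were not correlated across time points (21 correlations between -0.0152 and 0.0124), so replicate numbers were not used as pairs. These correlations cannot register an offset shared by all regions. Replicate 2 had the longer peak list at each time point, from 60483 against 56924 peaks at 0 h to 61403 against 61393 at 8 h and 58450 against 55588 at 48 h. Alternatives changed the overlap, merging, distance, TSS set, peak number, libraries and permutation scheme.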

Additional observations from a re-analysis of the deposited data

Results flagged for a closer look

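The called-region number of Eomes moved in opposite directions at different time points. At 8 h it was below 0 h by 1.5 regions on average (a difference of -1.5), with 4 and 4 against 5 and 6. At 48 h it was above 0 h by 2, with 7 and 8. Each library of the first lay below and each of the second above both 0 h libraries. The difference between these contrasts was not tested, and they share the 0 h libraries. The rise depends on how peaks are merged. Of the regions gained at 48 h, those at 10628 and 10917 bp lay 48 bp apart, and 124 and 129 bp from their other neighbours. With peaks merged within 200 bp, the number no longer rose with time (rho = -0.083).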

How the results depend on the processing

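At 48 h, 9 regions were gained and 21 lost. Gained regions numbered 6 when peaks within 200 bp were merged and 16 when 1 library sufficed, and lost ones numbered 12 within 20 kb. Regions gained at any time numbered 35 within 100 kb and 13 within 20 kb, against 23. Rising regions, 4 as reported, numbered 2 among the 12 induced libraries, 2 under the replicate block, 2 where all regions not called in every library were tested, 2 with merging within 200 bp, 7 with times in hours and 7 with the 50000 highest peaks per library. Falling regions, 8 as reported, numbered 18 with the 50000 highest peaks per library and 5 within 20 kb. Genes with falling numbers, 2 as reported, were 1 with 50% coverage, with the highest peaks, within 20 kb and among induced libraries. Rising genes, 0 as reported, were 1 within 100 kb and 1 among induced libraries, in both cases Eomes. Always-called regions with a rising percentile, 2 as reported, numbered 1 when ranked among always-called regions, and those falling, 1 as reported, numbered 2 among induced libraries. The GATA share was 61.4% over whole regions, against 54.2% of all. The causes of these shifts were not tested. Leaving out libraries gave 12 to 17 gained at 48 h, 30 to 35 gained at any time and 23 to 27 lost (1 library a time point), 0 to 7 rising and 0 to 12 falling regions, 0 to 1 rising and 0 to 3 falling genes, and 0 to 3 rising and 0 to 2 falling percentiles. The zeros at rising and falling regions and at falling genes come from 1 library a time point, where 7 libraries allow few distinct p-values. Rising genes were 0 in the main run as well. Leaving out single libraries was chosen after seeing the data. Of 220 tests of single regions and genes under the other alternatives, 187 kept direction and side of the threshold, 21 lost it, 4 gained it and 8 turned in direction with neither value past the threshold. These 8 were the numbers of Eomes (rho = -0.083 with merging within 200 bp, against 0.640) and Cdx2 (0.19 with 50% coverage and 0.052 with the highest peaks, against -0.446), and percentiles at Cdx2 14409 bp (0.37 among induced libraries), Tfap2c 1262 bp (0.18 among induced libraries), Tead4 17647 bp upstream (-0.31 among induced libraries and -0.080 when ranked among always-called regions) and Tead4 7519 bp upstream (-0.20 in that ranking). Without libraries, rho spanned -0.019 to 0.43 for the Ascl2 number, -0.17 to 0.16 at Cdx2 14409 bp, -0.022 to 0.36 at Hand1 12551 bp, -0.29 to 0.21 at Tead4 17647 bp and -0.15 to 0.21 at 7519 bp upstream. The fall of the Tead4 number held in all 22 alternatives other than 1 library a time point (adjusted permutation p 0.00216 to 0.0155). The replicate block changed no call at a gene and lost 4 region calls (Eomes 10628 bp, Tead4 46029 bp, Tfap2c 35852 bp and 4779 bp upstream, exact permutation test, adjusted p = 0.0555 each). Replicate numbers are not known to pair libraries. Depth is unknown, and a call near the threshold of a list can depend on it.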

Other observations

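Genes whose called-region number followed a member's most closely over the 14 libraries, among 9132 genes with at least 4 regions, were listed by Pearson correlation as a description. The points share libraries, and their peak numbers, and no test was made. For Tead4 these were Aox2 (r = 0.960) and Fabp1 (r = 0.951), for Elf5 Rif1 (r = 0.950) and Moap1 (r = 0.925), and for Eomes Mybbp1a (r = 0.938) and Rtraf (r = 0.923). For Tfap2c they were Adam23 (r = 0.851) and Grhl1 (r = 0.845), for Ascl2 Capn11 (r = 0.870) and Pdcd5 (r = 0.864), for Hand1 Clstn1 (r = 0.863) and Slfn5 (r = 0.841), and for Cdx2 Clybl (r = 0.787) and Atp6v0e2 (r = 0.751).

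The member loci differ in room. The nearest protein-coding TSS on either side lay 15170 bp from that of Cdx2 (Urad) and 28055 bp from that of Eomes (Golga4). For Elf5 it lay 73472 bp away (Cat), for Tfap2c 77073 bp (Fam209) and for Tead4 55028 bp (Tulp3). Genes with close neighbours can be given fewer regions by the nearest-TSS rule.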
